A study of Rattus norvegicus with 6 samples.

Results

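Nr3c1, the gene of the glucocorticoid receptor, and 9 genes known as its targets or partners were followed in single cells of the injured spinal cord. The 9 are Fkbp5, Tsc22d3, Sgk1, Per1, Dusp1, Zfp36, Klf9, Hsd11b1 and Mt1, and all 10 were chosen by name for their place in glucocorticoid signalling. They are 10 of the 25054 gene names counted in the injected cords and 10 of the 28615 counted in the time course. All 10 have an entry in both sets of tables, but Per1 had 18 UMIs (counted RNA molecules) over both injected libraries and Hsd11b1 had 596 over the whole time course.

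Single cells came from the spinal cords of SD rats aged 6 to 8 weeks, per the labels, with a crush made with scissors at thoracic level 10. The series follows immune cells over the days after injury and after a drug given into the cord. Its 6 libraries, 1 per group, are an intact cord, cords at 1, 3 and 7 days after injury, and injured cords injected with MPSS or with PBS. MPSS was dissolved in PBS at 10 mg/ml, and either solution was injected 3 days after injury at 5 sites, 1 µL per site, at depths of 0.6 and 1.2 mm and at 200 nl/min. Both injected groups therefore carry the injury and the needle track, and their cords were collected 2 weeks after injury. The labels do not spell out MPSS, letters that in spinal cord injury work stand for methylprednisolone sodium succinate, a synthetic glucocorticoid. For every group a 5-mm section was taken from 5 animals per condition, so a library is a pool in which animals cannot be told apart. The label of the intact library also names crush injury, while its title says intact, and the title was followed. The labels call all samples rat, while the time-course tables hold mouse-style gene names, and both injected samples are titled as re-analyzed. Levels were therefore not compared between the injected set and the time course.

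Glucocorticoids enter the cell and bind the receptor, a transcription factor held in the cytoplasm by heat shock proteins and the chaperones that work with them. The loaded receptor moves to the nucleus, raises genes such as Fkbp5, Tsc22d3 and Per1, and lowers many inflammatory genes by acting on other transcription factors. In microglia and macrophages this signal is known for damping cytokine output, and the protein of Fkbp5 in turn lowers the receptor's affinity for hormone. Several of the targets also answer to other signals: Sgk1, Dusp1, Zfp36 and Per1 to stress and growth signals, and Mt1 to zinc and oxidative stress.

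Rat promoter sequences from RefSeq (build GRCr8), reaching from 250 bases before the annotated start to 50 after it, were available for 9 of the 10 members in 14 windows, with no entry used for Hsd11b1. None of the 14 windows held the palindromic glucocorticoid response element searched, GNACA and TGTNC with 3 bases of any kind between them, which occurs on either strand in 0.439% of 33469 promoters of the same length. The stricter form, AGAACA and TGTTC with 3 bases between them, was also in none, against 0.0388% of all promoters. These letters not being in this window says nothing about binding elsewhere. A pair of windows is printed because Mt1 and Dusp1 are targets with another known input, and each holds repeated matches to an element of that input. In the Mt1 window capitals mark 6 matches to the metal response element core, TGCACNC or TGCGCNC on either strand, which is present in 24.2% of all promoters. In the Dusp1 window capitals mark matches to the cyclic AMP response element core TGACGTC, in 3.22% of all promoters, of which it holds 3 on both strands, 2 of them overlapping.
Mt1, chr19:10832926-10833225, minus strand: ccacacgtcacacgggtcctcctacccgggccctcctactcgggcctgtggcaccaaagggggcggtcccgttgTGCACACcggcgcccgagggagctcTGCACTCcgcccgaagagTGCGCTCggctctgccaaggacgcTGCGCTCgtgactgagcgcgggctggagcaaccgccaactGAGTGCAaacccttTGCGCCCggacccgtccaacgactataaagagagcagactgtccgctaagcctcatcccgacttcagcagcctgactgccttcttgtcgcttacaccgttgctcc
Dusp1, chr10:17184603-17184902, plus strand: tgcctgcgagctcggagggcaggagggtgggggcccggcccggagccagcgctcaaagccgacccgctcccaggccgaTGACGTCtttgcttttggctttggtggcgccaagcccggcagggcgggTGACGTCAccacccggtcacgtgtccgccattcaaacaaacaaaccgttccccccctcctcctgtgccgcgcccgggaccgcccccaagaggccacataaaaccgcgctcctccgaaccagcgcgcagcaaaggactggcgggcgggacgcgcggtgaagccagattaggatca
The Mt1 matches lie between 176 and 49 bases before the start, and those of Dusp1 begin 172, 124 and 123 bases before it. Dusp1 also holds the E-box CACGTG 107 bases before its start, an element in 6.42% of all promoters. Sgk1 and Klf9 each hold 1 match to the AP-1 element TGANTCA, found in 7.33%. Metal element matches occurred in 4 of the members' windows, 1 each in Nr3c1, Tsc22d3 and Dusp1 beside the 6 of Mt1. Each match is a run of letters and not a measured binding site.

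In the injected set 1377 of 1513 PBS cells and 2091 of 2339 MPSS cells were kept, with medians of 10292 and 10417 UMIs and of 4.07 and 3.94% mitochondrial UMIs per cell. The time course held 2757, 7360, 9263 and 7467 cells from intact to day 7, at medians between 3090 and 6648 UMIs. Cells were placed in classes by marker genes cell by cell, and class names below mean cells gated as such, not sorted cells. Phagocyte-like cells, the microglia-like and the macrophage- or monocyte-like cells together, made up 712 PBS and 1040 MPSS cells. Of these, 372 and 545 were gated as microglia, 234 and 323 as macrophages or monocytes, and 106 and 172 fell in neither. The microglia-gated cells had Tmem119 at 164 and 177 CPM (UMIs of the gene scaled to 1000000 UMIs of the class) in PBS and MPSS against 8.76 and 5.05 in macrophage-gated cells, while Siglech was at 0 in the microglia-gated cells of both libraries. The macrophage-gated cells had S100a4 at 644 and 263 CPM against 47.9 and 50.9 in microglia-gated cells. Only 3 and 6 phagocytes lay near the gate between phagocytes and the other classes, but 17.3% and 15.4% of Schwann cells lay near theirs. How many phagocytes lay near the split between microglia and macrophages was not measured. The PBS and MPSS libraries shared 4 cell barcodes, and the time-course libraries shared 20 to 91 per pair.

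Levels are given as CPM of the UMIs summed over all cells of a class in a library. Ranges in brackets are 95% intervals, exact Poisson for levels and exact binomial for ratios and shares, and cover counting error only. With 1 library per group there is no replicate check, no test was made, and a difference between groups is a difference between 2 libraries. A member is said to have risen or fallen only where its level differed at least 2-fold with at least 20 UMIs over both libraries, and the share of all genes that met the same rule stands beside each count. Levels of different genes were not compared, since they depend on transcript features as well.

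The receptor itself was found in every class, and its levels in MPSS and PBS cords were close. In the PBS library, Nr3c1 stood at 164 CPM (113-231) in T and NK cells, 88.8 (78.4-100.2) in oligodendrocytes, 60.8 (34.8-98.7) in Schwann cells and 53.8 (42.8-66.7) in fibroblasts. Microglia followed at 39.9 CPM (34.2-46.2) and macrophages and monocytes at 30.9 (25.3-37.4). Of the neighbours in this order, the intervals of T and NK cells and of oligodendrocytes did not overlap, while those of the other 4 neighbouring pairs did. The MPSS library gave the same order, from 119 CPM (77.2-176) in T and NK cells over 92.6 in oligodendrocytes to 28.2 (23.8-33.2) in macrophages and monocytes, and there the first 2 classes overlapped. In microglia the receptor was at 39.9 CPM in PBS and 34.3 in MPSS, a ratio of 0.860 (0.703-1.05), and in macrophages and monocytes the ratio was 0.911 (0.704-1.18). In all phagocytes together it was 35.6 and 31.2 CPM, or 0.876 (0.756-1.015), and this ratio turned to 1.23 when each cell was thinned to 1000 UMIs. Oligodendrocytes (1.04), fibroblasts (1.07) and Schwann cells (1.11) also had intervals that held 1, so no difference in receptor RNA was detectable at this depth over any of these classes as a whole. Within oligodendrocyte clusters the intervals lay on both sides of 1, with ratios of 1.31 (1.02-1.70) in cluster 4, 0.766 (0.592-0.992) in cluster 8 and 0.172 (0.0170-0.963) in cluster 9, the last on 6 and 2 UMIs.

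**Figure D1:**
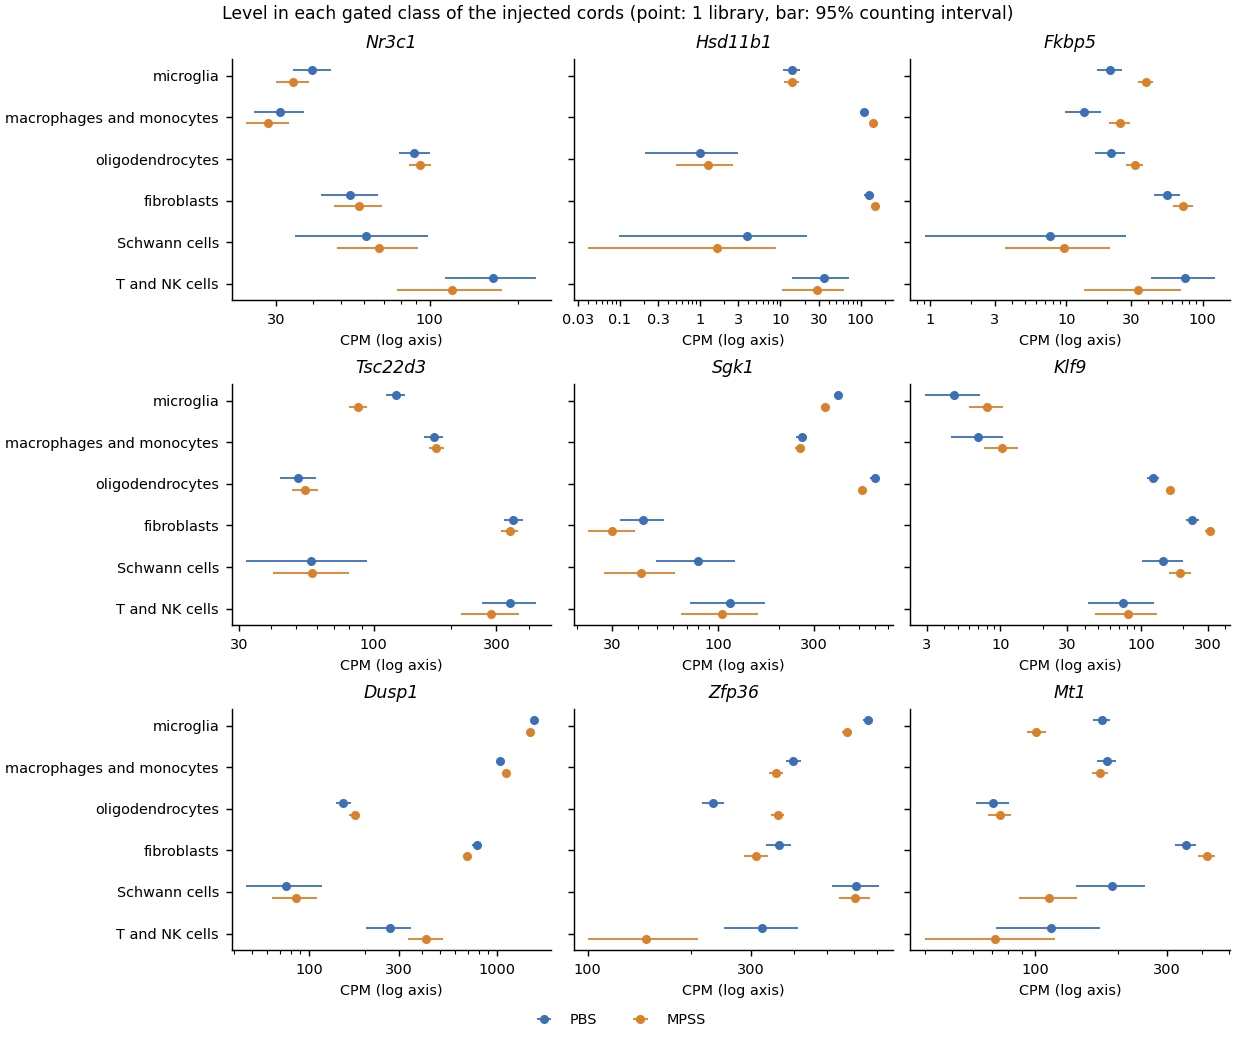
Level of 9 members (Per1 left out for its low counts) in 6 gated classes of the PBS and MPSS libraries, in CPM on a log axis, with 1 point per library and bars for 95% counting intervals. Fkbp5 lay higher in MPSS than in PBS in microglia, macrophages and oligodendrocytes with intervals apart or nearly so, while Nr3c1 overlapped in every class.

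Hsd11b1, whose enzyme regenerates active glucocorticoid inside cells, was uneven over the classes. In PBS it stood at 137 CPM (119-158) in phagocytes gated neither way, 128 (111-147) in fibroblasts and 111 (99.8-122) in macrophages and monocytes, with each neighbour's interval overlapping the next. T and NK cells had 34.9 CPM (14.02-71.9) from 7 UMIs, below and apart from macrophages and monocytes, and microglia 13.9 (10.7-17.8), which overlapped T and NK cells. Oligodendrocytes had 1.01 CPM in PBS and 1.26 in MPSS, and Schwann cells 1 UMI in each library. Against PBS, MPSS macrophages and monocytes had 142 CPM, a ratio of 1.28 (1.13-1.46), microglia 13.9 in both libraries, and fibroblasts 149.5 against 128, or 1.17 (0.972-1.41). Within cluster 3, the largest macrophage cluster, the ratio was 0.988 (0.881-1.11) on 476 and 776 UMIs, and that cluster held 29.5% of PBS and 37.8% of MPSS macrophages and monocytes. Beside it, Plac8 was at 396 and 136 CPM and Lyve1 at 41.2 and 112 in the gated class, and the part of this make-up in the class value was not tested. In cluster 6, named microglia, Hsd11b1 had 1 PBS and 28 MPSS UMIs. In fibroblasts 1 cell held 22.6% of the PBS and 15.7% of the MPSS UMIs. After thinning to 1000 UMIs per cell, 7.36% of PBS and 8.39% of MPSS macrophages and monocytes had an Hsd11b1 UMI, and 33.8 and 39.9% did before thinning, at medians of 12986 and 14596 UMIs. The share in oligodendrocytes, taken as background, was 0.446% of thinned PBS cells and 0 of 411 thinned MPSS cells, at medians of 10900 and 11886 UMIs.

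Fkbp5 encodes a chaperone partner that holds the receptor in a low-affinity state and is itself among its most used readouts. In phagocytes it stood at 15.7 CPM (13.3-18.5) from 146 UMIs in PBS and 31.3 (28.3-34.4) from 417 UMIs in MPSS, a ratio of 1.99 (1.64-2.42). The intervals of the libraries lay apart, and the ratio fell just short of the 2-fold rule, which it passed in 6 of 10 alternatives, ranging from 1.91 to 3.09. Microglia had 20.8 CPM in PBS and 38.2 in MPSS, a ratio of 1.83 (1.44-2.35), and macrophages and monocytes 13.4 and 24.7, or 1.84 (1.30-2.64), so neither reached 2-fold. The higher level was spread over cells, since 16.4% of PBS and 29.0% of MPSS phagocytes had a Fkbp5 UMI, or 1.15% (0.497-2.25) and 3.45% (2.41-4.76) after thinning, with 15 and 24 shallower cells left out. Within clusters that group alike cells, Fkbp5 was above 1 in all 5 phagocyte clusters with at least 50 cells in both libraries. The ratios ran from 1.38 (0.987-1.95) in cluster 0 to 2.97 (1.84-4.98) in cluster 1, and 3 of the 5 intervals lay above 1. Cluster 5, at 2.25 (0.466-21.4), rested on only 2 PBS and 9 MPSS UMIs of Fkbp5. Neutrophil markers summed to 169 CPM in PBS and 183 in MPSS phagocytes, and to 78.8 and 50.6 in microglia. Lyz2, which is among the markers of phagocytes in general, was at 11735 and 7829 CPM in phagocytes. The macrophage markers, a separate list without Lyz2, summed there to 737 and 527 CPM. Their members differed in direction: S100a4 was at 275 and 134 CPM, Plac8 at 166 and 77.3 and Fn1 at 42.3 and 14.2, while Mrc1 was at 69.8 and 99.8, Lyve1 at 20.8 and 51.0, F13a1 at 11.2 and 17.7 and Cd163 at 2.58 and 4.20. The part of these markers in the result was not tested.

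The phagocytes gated neither way had Fkbp5 at 4.98 CPM from 7 UMIs in PBS, where it rose to 23.5 CPM from 37 UMIs in MPSS, a ratio of 4.72 (2.08-12.6). These cells also differed in depth, with medians of 12416 UMIs in PBS and 6484 in MPSS, in neutrophil markers, summing to 147 and 375 CPM, and in cycling markers, summing to 139 and 39.4, and the part of these in the result was not tested. Oligodendrocytes had 21.1 CPM (16.2-27.0) in PBS and 31.7 (27.2-36.8) in MPSS, a ratio of 1.502 (1.12-2.04). Fibroblasts had 55.1 and 72.2 CPM, or 1.31 (0.994-1.74). T and NK cells stood the other way, at 74.7 CPM from 15 UMIs in PBS and 33.4 from 7 in MPSS, so that Fkbp5 fell there to 0.447 of the PBS level with an interval of 0.154 to 1.17 that held 1. These are 50 and 59 cells, and their neutrophil markers summed to 29.9 CPM in PBS and 1236 in MPSS, S100a9 alone to 978, a difference whose part in the result was not tested. Of the 11 clusters with at least 50 cells in both libraries, the ratio of Fkbp5 was below 1 in the T and NK cluster, at 0.539 (0.194-1.40). It had no value in cluster 9, which had 0 PBS UMIs and 1 MPSS UMI, and was above 1 in the other clusters. Only 3 of the intervals lay above 1, all of them in phagocyte clusters. The oligodendrocyte clusters 4, at 1.31 (0.826-2.16), and 8, at 1.27 (0.789-2.07), had intervals that held 1.

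**Figure D2:**
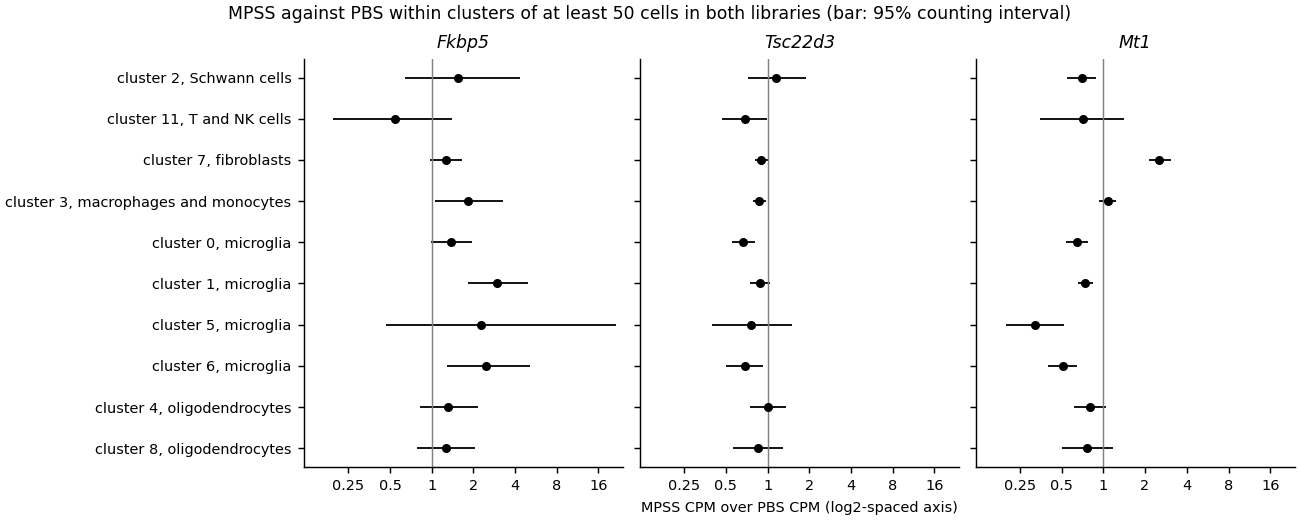
MPSS over PBS ratio of Fkbp5, Tsc22d3 and Mt1 within Leiden clusters of at least 50 cells in both libraries, named by their markers, on a log2-spaced axis with 95% counting intervals; cluster 9, with no PBS UMI of Fkbp5, is not drawn. All 5 phagocyte clusters lie above 1 for Fkbp5 and below 1 for Tsc22d3, while Mt1 runs from 0.323 in cluster 5 to 2.54 in the fibroblast cluster.

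Tsc22d3, which encodes the anti-inflammatory protein GILZ, was lower in MPSS phagocytes, where Fkbp5 was higher. It was at 156 CPM (148-164) in PBS phagocytes and 133 (127-139) in MPSS phagocytes, a ratio of 0.851 (0.794-0.913). Microglia had 122 CPM in PBS and 87.1 in MPSS, or 0.715 (0.635-0.805), while macrophages and monocytes had 171 and 175, or 1.03 (0.924-1.14). Within the 5 phagocyte clusters the ratio was below 1 in each, from 0.669 (0.554-0.806) in cluster 0 to 0.886 (0.749-1.05) in cluster 1, and 3 intervals lay below 1. Over the 10 alternatives the phagocyte ratio stayed between 0.730 and 0.868. The classes ordered differently from those of the receptor: fibroblasts at 349 CPM (320-380) and T and NK cells at 339 (263-429) overlapped at the top in PBS, and Schwann cells at 57.0 (31.9-94.01) and oligodendrocytes at 50.9 (43.2-59.7) overlapped at the bottom. In these classes the MPSS to PBS ratios were 0.966 in fibroblasts, 0.845 in T and NK cells, 1.01 in Schwann cells and 1.06 in oligodendrocytes, all with intervals that held 1.

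Sgk1, a kinase of ion transport and cell survival, and Klf9, a zinc finger transcription factor, stood on opposite sides of PBS in phagocytes. Sgk1 was at 332 CPM in PBS and 294 in MPSS phagocytes, or 0.887 (0.846-0.930), and at 599 and 521 in oligodendrocytes, or 0.870 (0.820-0.923). Schwann cells had 79.8 CPM from 21 UMIs in PBS and 41.7 from 26 UMIs in MPSS, or 0.522 (0.283-0.976), but 1 cell held 28.6% of the PBS UMIs. Klf9 was scarce in phagocytes, at 5.49 CPM from 51 UMIs in PBS and 9.07 from 121 in MPSS, a ratio of 1.65 (1.18-2.34). Within the 5 phagocyte clusters Klf9 was above 1 in 3, and only cluster 1, on 5 and 20 UMIs, had an interval above 1, at 3.04 (1.11-10.35). Sgk1 intervals lay below 1 in 2 of these clusters and above 1 in 1. Klf9 was an abundant transcript of other classes, at 232 CPM in PBS and 312 in MPSS fibroblasts, or 1.34 (1.18-1.54), and at 122 and 161 in oligodendrocytes, or 1.32 (1.17-1.49). Schwann cells had 144 and 191 CPM of Klf9, or 1.32 (0.910-1.96), so the ratio was above 1 in all 4 of these classes and past 2-fold in none. Cycling markers summed to 333 CPM in PBS and 16.3 in MPSS fibroblasts, a difference whose part in the fibroblast values was not tested.

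Dusp1 encodes a phosphatase that shuts off MAP kinases, and Zfp36 the protein tristetraprolin, which speeds the decay of cytokine mRNA. Both genes stood close in PBS and MPSS phagocytes taken as a whole, but not within phagocyte clusters. Dusp1 was at 1312 CPM in each library, a ratio of 1.00 (0.977-1.02), made up of 1586 against 1495 in microglia and 1036 against 1118 in macrophages and monocytes. Within clusters Dusp1 was at 0.836 (0.799-0.874) in cluster 0 and 1.20 (1.15-1.26) in cluster 1. Zfp36 was at 0.794 (0.741-0.850) and 1.11 (1.02-1.20) in the same clusters. Of the 5 phagocyte clusters, each gene had 3 intervals below 1 and 1 above. Zfp36 was at 523 CPM in PBS and 465 in MPSS phagocytes, or 0.889 (0.856-0.923), with 0.868 in microglia and 0.890 in macrophages and monocytes. Oligodendrocytes showed the reverse, with Zfp36 at 232 CPM (215-250) in PBS and 359.8 (344-376) in MPSS, a ratio of 1.55 (1.42-1.69) that stayed between 1.26 and 1.64 over 10 alternatives. Within oligodendrocyte clusters the Zfp36 ratio was 1.48 (1.30-1.68) in cluster 4, 0.914 (0.746-1.12) in cluster 8 and 0.969 (0.386-2.64) in cluster 9. Cluster 4 held 24.4% of PBS and 35.0% of MPSS oligodendrocytes, and the part of this make-up in the class value was not tested. Zfp36 fell in T and NK cells from 324 CPM to 148, or 0.457 (0.288-0.711), on 65 and 31 UMIs of which 1 cell held 24.6% in PBS. Dusp1 in the same cells went the other way, from 269 to 419.9 CPM, or 1.56 (1.1-2.23). Both genes are also among those that answer to cell dissociation: the 15 immediate early and dissociation genes tested in oligodendrocytes had a median log2 ratio of 0.43, none of them past 2-fold, beside -0.06 for all genes tested there. Their part in the oligodendrocyte value of Zfp36 was not tested.

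Mt1, a metallothionein that binds zinc and copper, was lower in MPSS than in PBS microglia, while its interval in macrophages and monocytes held 1, and the difference between these classes was not tested. In microglia it stood at 174.5 CPM (162-187) in PBS and 101 (93.8-109) in MPSS, a ratio of 0.581 (0.523-0.645). Macrophages and monocytes had 182 and 172 CPM, or 0.947 (0.854-1.05), and all phagocytes 175 and 134, or 0.765 (0.715-0.819). Of the 5 phagocyte clusters, 4 had intervals below 1, down to 0.323 (0.199-0.518) in cluster 5, on 48 PBS and 31 MPSS UMIs. Fibroblasts had 350.1 CPM in PBS and 417 in MPSS, or 1.19 (1.07-1.33), and the fibroblast cluster 7 had 165.5 and 419.8, or 2.54 (2.12-3.05). The gated fibroblasts are 118 and 146 cells and cluster 7 is 65 and 90, so the value depends on which of these cells are taken. Per1, a clock gene and fast target, had 4 UMIs in PBS and 6 in MPSS phagocytes, and nothing further was read from it in the injected cords.

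By the 2-fold rule 0 of 9 members tested rose or fell in phagocytes, where 3.52% of all 9879 genes did. The same held in microglia (0 of 9, beside 3.22% of all genes), macrophages and monocytes (0 of 9, beside 4.39%), fibroblasts (0 of 9, beside 5.08%), oligodendrocytes (0 of 8, beside 3.87%) and Schwann cells (0 of 7, beside 7.04%). In T and NK cells 2 of 8 fell, Zfp36 and Fkbp5, where 4.23% of all genes fell and 8.15% were called either way. Among phagocytes gated neither way 2 of 9 rose, Fkbp5 and Klf9, where 3.41% of all genes rose and 6.14% were called either way. Klf9 rested on 6 and 15 UMIs, with a ratio of 2.23 (0.819-7.03). With a rule of 1.5-fold, 2 members rose in phagocytes, Fkbp5 and Klf9, beside 11.5% of all genes called either way, and 2 in oligodendrocytes, Zfp36 and Fkbp5, beside 13.3%. The members' median log2 ratio was -0.17 in phagocytes and 0.14 in oligodendrocytes, beside -0.02 and -0.06 for all genes tested. The intervals of 2 members lay above 1 and of 4 below 1 in phagocytes, and of 2 and 5 in microglia. They were 3 and 1 in macrophages and monocytes, and 4 and 1 in oligodendrocytes. The share of all genes with intervals off 1 was not computed, so these counts have no background to be read against.

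**Figure D3:**
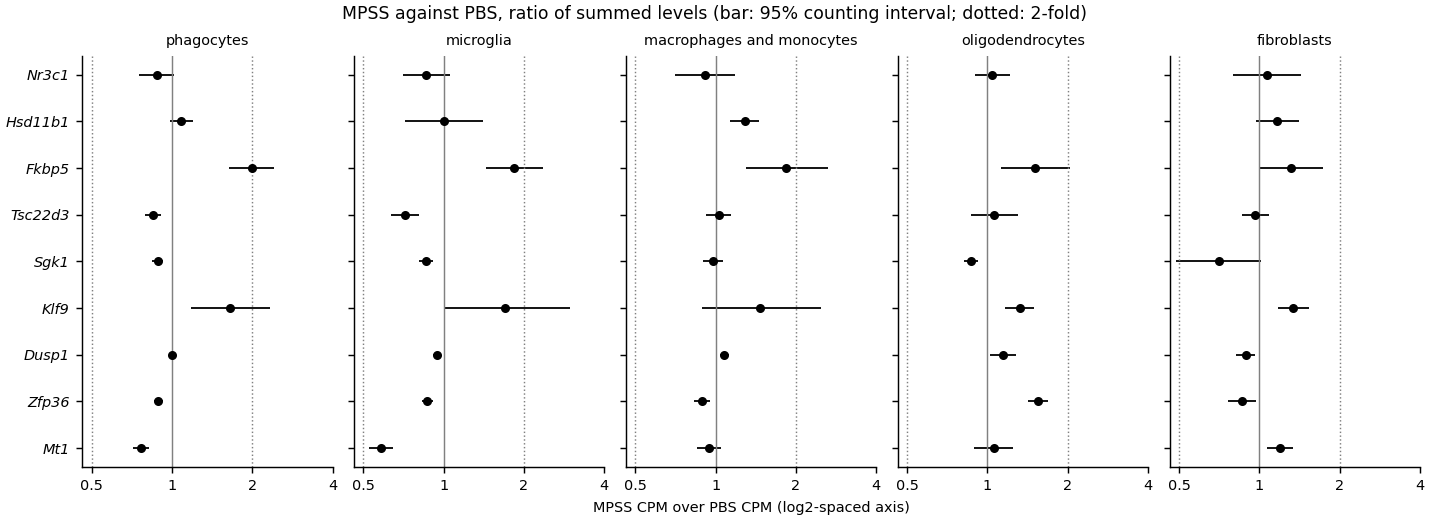
Ratio of the MPSS to the PBS level of the members in 5 gated classes on a log2-spaced axis, with 95% counting intervals and dotted lines at 2-fold; members under 20 UMIs over both libraries are not drawn. Fkbp5 is the member furthest above 1 in phagocytes (1.99) and Mt1 the one furthest below 1 in microglia (0.581), and no point passes 2-fold.

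Other genes of the pathway were counted by the same rule in phagocytes, where 1.41% of all genes rose and 2.12% fell. The gene lists used here and below were chosen with earlier results of these data known, so their counts are no independent check. Of 14 genes of receptor chaperones, coregulators and hormone metabolism tested, 0 rose and 1 fell, H6pd, whose enzyme supplies the cofactor of the Hsd11b1 enzyme, at 2.80 CPM from 26 UMIs in PBS and 1.12 from 15 in MPSS, a ratio of 0.402 (0.198-0.788). Of 21 other genes known to be induced by glucocorticoids, 3 rose and 0 fell, with a median log2 ratio of -0.08. This list also holds Mrc1, Cd163 and Lyve1, which served as macrophage markers. Il1r2, the decoy receptor for interleukin 1, rose from 4.41 to 13.6 CPM, or 3.08 (2.18-4.43), and Lyve1, a hyaluronan receptor of resident macrophages, from 20.8 to 51.0, or 2.46 (2.09-2.90). Il1r2 was found in 22 of 712 PBS and 71 of 1040 MPSS phagocytes. Lyve1 is also among the markers that gated macrophages and was higher together with the markers Mrc1, F13a1 and Cd163. Its UMIs lay in 83 of 712 PBS and 132 of 1040 MPSS phagocytes. Of its 681 MPSS UMIs, 575 lay in 82 macrophage-gated cells. The other gene that rose was Klf15, named after its values were seen, on 4 and 16 UMIs.

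Of 20 inflammatory genes known to be lowered by glucocorticoids, 0 rose and 3 fell in phagocytes, with a median log2 ratio of -0.30. Tnf, the cytokine, fell from 45.8 CPM in PBS to 22.9 in MPSS, or 0.499 (0.429-0.579), and in microglia from 74.6 to 34.6, or 0.464 (0.390-0.550). The phagocyte value is at the edge of the 2-fold rule. TMM, which lifts every log2 ratio there by 0.024, takes it short of 2-fold. The UMIs of Tnf were spread over 178 of 712 PBS and 164 of 1040 MPSS phagocytes. Mmp9, a matrix protease also used here as a neutrophil marker, fell from 11.2 to 1.35 CPM, but only 11 PBS and 4 MPSS phagocytes had a UMI of it and 1 PBS cell held 41.4%. Socs3, the third, was named after its values were seen and had 37 and 24 UMIs. In oligodendrocytes 5 of 9 such genes were called, 1 higher and 4 lower, beside 3.87% of all genes called either way there. The phagocyte marker sum there was 431 CPM in PBS and 235 in MPSS, and its part in those calls was not tested.

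Of 13 clock genes tested 1 rose in phagocytes, Per3, a relative of Per1, from 4.63 to 9.29 CPM, or 2.01 (1.41-2.91). Of 15 immediate early and dissociation genes 0 rose and 1 fell, Hspa1b, a heat shock protein, from 88.6 to 32.3 CPM, or 0.364 (0.324-0.410), and it fell to a like extent in microglia (0.354) and in macrophages and monocytes (0.402). Of 8 metal response genes 0 rose and 1 fell, Mt3, the brain metallothionein, from 60.8 to 5.02 CPM. Mt3 passed the rule in 4 of 7 classes, phagocytes gated neither way not counted, and in both directions. It was lower in phagocytes and in macrophages and monocytes, which are part of them and held 526 of their 565 PBS UMIs. It was higher in fibroblasts and in Schwann cells, where 1 PBS cell held all 5 PBS UMIs. In PBS macrophages and monocytes its 526 UMIs came from 24 cells, and 1 of them held 36.1%. Without that cell the PBS level was 98.1 CPM beside 3.69 in MPSS. Mt2A, a close relative of Mt1 named after its values were seen, had 25.3 and 18.7 CPM in phagocytes and did not pass 2-fold.

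Over the 15 points that the gated classes make in the injected libraries, the genes whose log2 level ran most like that of Nr3c1 were Taf7, Hdac3 and Dgka, with Pearson correlations of 0.95, 0.949 and 0.94 among 4882 genes. For Tsc22d3 they were Clec2g (0.932), Hpcal1 (0.905) and Fxyd5 (0.896), and for Fkbp5 they were Smarca2 (0.836), Rassf2 (0.826) and Trip12 (0.813). The points share libraries and differ mainly by class, and no p is given.

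The time course gives the same genes' levels after injury without the drug. Its 3 comparisons share the intact library, so they are not independent of each other. The classes also changed make-up, since 88.3% of intact phagocytes lay in cluster 13 and 39.1 and 38.5% of day 1 phagocytes in clusters 5 and 6. Microglia markers summed to 17185 CPM in intact phagocytes and to 2465, 4667 and 6684 at days 1, 3 and 7, and macrophage markers to 660, 5229, 2490 and 892. Over all genes tested in phagocytes the median log2 ratio to intact was -0.19, -0.45 and -0.57, and scaling by trimmed means (TMM) would lift every ratio there by 0.42, 0.67 and 0.68 on the log2 scale.

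In phagocytes Nr3c1 stood at 83.4 CPM (73.6-94.2) in the intact cord and at 39.2, 28.6 and 33.7 at days 1, 3 and 7. It fell at each time, to 0.470 (0.410-0.539), 0.343 (0.300-0.392) and 0.403 (0.350-0.466) of intact, and under TMM it was at 0.631, 0.547 and 0.647, short of 2-fold. Tsc22d3 went from 367 CPM (346-389) to 97.1, 114 and 144.5, and thus fell to 0.265 (0.247-0.283), 0.312 (0.292-0.332) and 0.394 (0.368-0.421). At days 1 and 3 this held in all 10 alternatives, and at day 7 TMM gave 0.632. In microglia alone Tsc22d3 was at 359 CPM in the intact cord and at 54.3, 96.1 and 138 after injury, the ratio at day 1 being 0.151 (0.138-0.165).

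Fkbp5 did not pass 2-fold in phagocytes at any time. It was at 22.5 CPM (17.6-28.5) in the intact cord and at 28.7, 27.9 and 21.4 at days 1, 3 and 7, with ratios of 1.27 (0.998-1.65), 1.24 and 0.951, the last of which TMM turned to 1.53. Klf9 rose from 3.22 CPM, 10 intact UMIs, to 19.5 at day 1 and 13.2 at day 3, ratios of 6.05 (3.27-12.7) and 4.11, and was at 6.42 at day 7. Mt1 rose at day 1 from 589 CPM to 1689, or 2.87 (2.73-3.00), and was at 839 and 889 later. Under TMM these later values of Mt1 and the day 7 value of Klf9 pass 2-fold above intact. Sgk1 was at 604 CPM in the intact cord and 309.5, 394 and 363 after injury, Dusp1 at 625 against 415, 381 and 560.1, and Per1 at 32.9 against 18.0, 17.2 and 19.4, none past 2-fold. Under TMM the day 3 value of Sgk1 and the day 7 values of Dusp1 and Zfp36 turned to 1.04, 1.44 and 1.21 times intact. Zfp36 went from 524 CPM to 287, 249 and 397, and fell past 2-fold at day 3, to 0.475 (0.451-0.500), but under TMM was at 0.758.

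Of the 10 members tested in phagocytes, 2 rose and 2 fell at day 1, where 16% of all genes rose, 23.9% fell and 39.9% were called in all. At day 3, 1 rose and 3 fell beside 12, 28.7 and 40.7% of all genes, and at day 7, 0 rose and 2 fell beside 7.36, 27.6 and 35%. With a rule of 1.5-fold, 8, 7 and 7 of the 10 members were called either way at days 1, 3 and 7, beside 61, 62 and 61% of all genes. In microglia 5 of 9 were called at day 1 beside 39.1% of all genes, and 3 of 9 at days 3 and 7 beside 33.6 and 35.5%. The members' shares, 4 of 10 at days 1 and 3 and 2 of 10 at day 7 in phagocytes, were close to or below that background. The members' median log2 ratio in phagocytes was -0.73, -0.67 and -0.56 at days 1, 3 and 7. Macrophages and monocytes were only 55 cells in the intact cord. Of the members there, 6 of 10 were called at days 1 and 3 and 4 of 9 at day 7, beside 43, 49.2 and 28.5% of all genes. There Sgk1 had 111 CPM from 25 UMIs and rose to 302, 394 and 261, ratios of 2.73 (1.84-4.22), 3.57 (2.41-5.51) and 2.36 (1.58-3.68), while it was lower than intact in microglia at each time.

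Among microglia alone Fkbp5 was at 23.7 CPM in the intact cord and at 36.1, 39.0 and 22.7 at days 1, 3 and 7, ratios of 1.52 (1.18-1.99), 1.64 (1.28-2.13) and 0.957. Mt1 rose at day 1 from 489 CPM to 1747, or 3.58 (3.39-3.77), and was at 760.2 and 877 later, values that pass 2-fold above intact under TMM. Dusp1 fell at day 1 from 571 CPM to 234, or 0.409, and was at 378 and 569 at days 3 and 7. The day 7 values of Dusp1 and Fkbp5 turned to 1.59 and 1.53 times intact under TMM. The 55 intact macrophages and monocytes had Tsc22d3 at 465 CPM, and it fell to 149, 132 and 191 after injury, ratios of 0.321 (0.264-0.394), 0.285 (0.235-0.349) and 0.412 (0.332-0.514). Dusp1 went from 1323 to 642, 375 and 558 CPM in the same cells, and Fkbp5 had 2 intact UMIs, too few to read a change from.

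**Figure D4:**
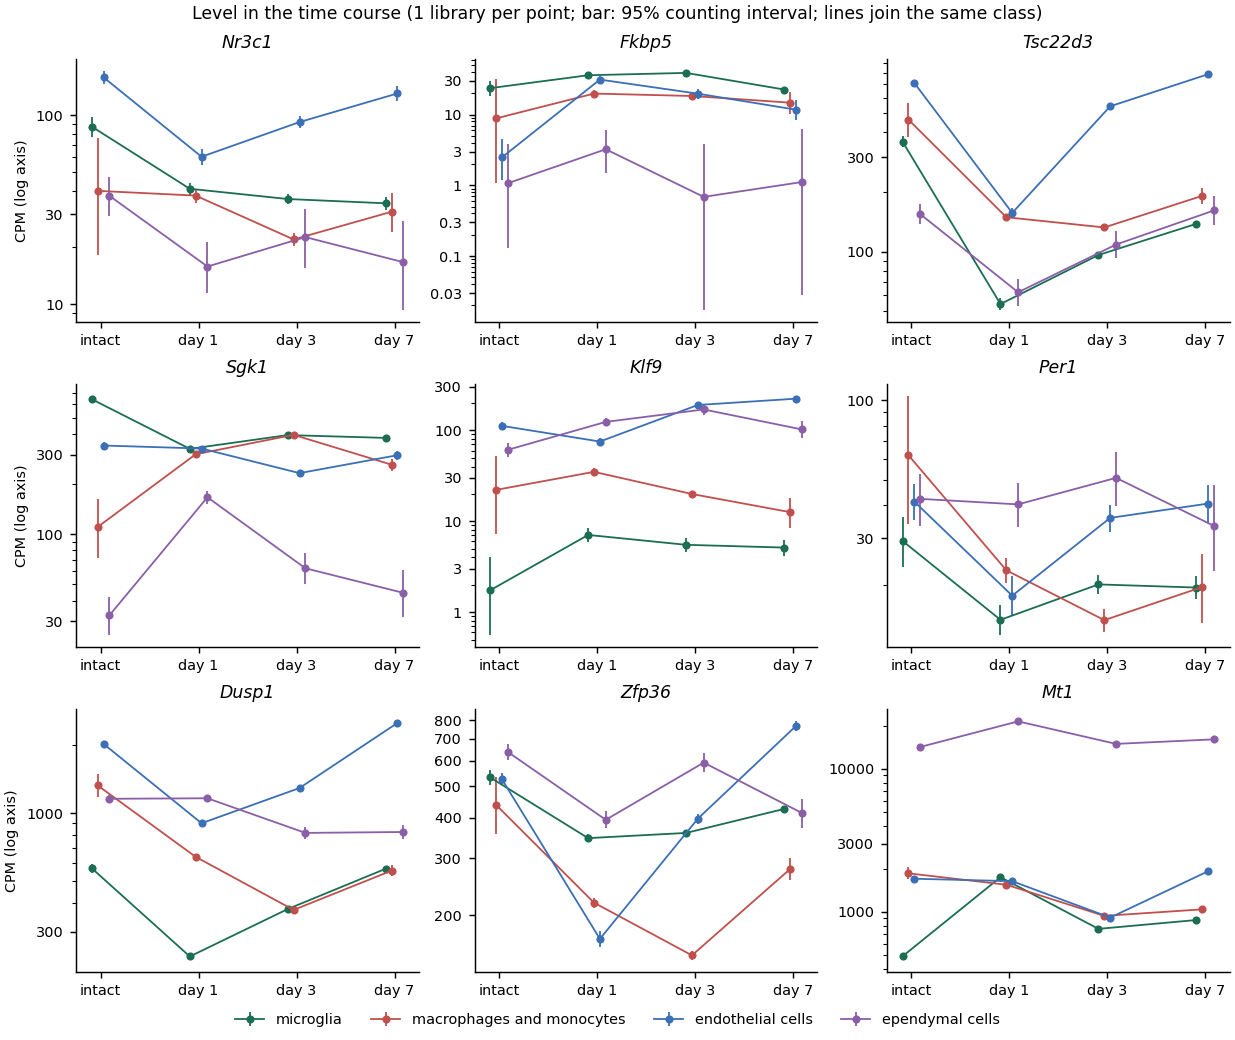
Level of 9 members (Hsd11b1 left out for its low counts) in microglia, macrophages and monocytes, endothelial and ependymal cells of the intact cord and at days 1, 3 and 7, in CPM on a log axis, with 1 library per point and 95% counting intervals. Tsc22d3 lies lower at day 1 than in the intact cord in all 4 classes and Fkbp5 in endothelial cells goes from 2.49 to 31.3 CPM; under TMM scaling the microglial day 7 values of Dusp1, Fkbp5, Per1 and Zfp36 lie above intact.

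In endothelial cells, 1140 to 1381 per library, the receptor and 4 of its targets fell together at day 1, while Fkbp5 rose. The cells lay in different clusters by library, since 88.2% of intact cells were in cluster 9, 93.8% of day 1 cells in cluster 7, and 78.3 and 87.9% of day 3 and day 7 cells in cluster 2. Nr3c1 was at 159 CPM (147-172) in the intact cord, fell to 60.4 at day 1, a ratio of 0.380 (0.335-0.430), and was at 92.2 and 131 at days 3 and 7. Tsc22d3 fell at day 1 from 712 CPM to 157, or 0.220 (0.205-0.236), and was at 542 and 788 later. Zfp36 fell from 525 to 169, Dusp1 from 2015 to 902 and Per1 from 41.3 to 18.1 at day 1, ratios of 0.322, 0.448 and 0.439, and by day 7 they stood at 766, 2493 and 40.6 CPM, the log2 ratio of Per1 at day 7 being -0.03 and 0.14 under TMM. Against these, Fkbp5 rose from 2.49 CPM (1.19-4.58), 10 intact UMIs, to 31.3, 19.8 and 11.8 CPM, ratios of 12.6 (6.72-26.6), 7.96 (4.21-16.9) and 4.72 (2.33-10.6). An Fkbp5 UMI was found in 0.877, 15.8, 9.12 and 3.40% of endothelial cells from intact to day 7, and in 0.351, 3.25, 1.45 and 1.22% after thinning. The day 1 ratio stayed between 9.49 and 13.8 over 10 alternatives. Klf9 was at 112 CPM in the intact cord and 75.3, 190.0 and 223 after injury, and Sgk1 and Mt1 at day 1 were at 0.959 and 0.961 of intact, each 1.01 under TMM.

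At day 1, 1 member rose and 5 fell of 9 tested in endothelial cells, where 13.1% of all genes rose, 11.5% fell and 24.6% were called in all, and at days 3 and 7 only Fkbp5 was called, higher, beside 7.61 and 4.1% of all genes higher and 15.1 and 9.61% either way. The members' median log2 ratio was -1.16, -0.40 and 0.17, beside -0.04, -0.18 and -0.19 for all genes tested. Markers of other classes in the endothelial cells moved as well: neutrophil markers summed to 686, 1066, 177 and 921 CPM from intact to day 7, fibroblast markers to 47.0, 457, 237 and 206, and phagocyte markers to 1040, 794, 1642 and 2480. Their part in the members' values was not tested. At day 1 the Fkbp5 level was 28.7 CPM (26.9-30.7) in phagocytes and 31.5 (23.9-40.7) in fibroblasts, both overlapping the endothelial 31.3 (27.3-35.7).

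Ependymal cells, which line the central canal, numbered 572, 450, 401 and 357. Intact ependymal cells all lay in cluster 8, while 99.8% of day 1 ependymal cells lay in cluster 10, which also held 99.1% of day 1 astrocytes. The median astrocyte marker score of the ependymal cells was 0.110 in the intact cord and 0.191 at day 1, and its part in the values below was not tested. Sgk1 rose there at day 1 from 32.7 CPM (24.98-41.95) to 167, or 5.10 (3.90-6.78), and was at 62.5 and 44.5 at days 3 and 7. Klf9 rose at days 1 and 3, from 61.0 CPM to 124 and 169.6, ratios of 2.03 (1.64-2.53) and 2.78 (2.22-3.501). Tsc22d3 fell at day 1 from 155 to 62.3 CPM, or 0.402, and Nr3c1 from 37.5 to 15.8, or 0.422, while Mt1 stood at 14215 CPM in the intact cord and 21466 at day 1. Of 8 members tested 2 rose and 2 fell at day 1, where 13% of all genes rose, 16% fell and 29% were called in all. At day 3, 1 rose, beside 8.16% of all genes higher and 15.8% either way, and at day 7, 1 fell, beside 7.1% lower and 12.6% either way. At day 1, 12.9% of these cells lay near the gate, and ependymal markers summed to 8387, 4970.0, 6790.0 and 8311 CPM from intact to day 7.

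Hsd11b1 was rare in phagocytes of the time course, at 0.978 to 2.10 CPM. It was higher in neutrophils, at 94.3 CPM (80.5-109.8) at day 1, 77.6 (46.0-122.7) at day 3 and 111 (88.3-137.8) at day 7, and in T and NK cells of day 1, at 115 (69.2-179.5) from 19 UMIs. These 4 intervals overlap.

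Counts over the other lists are to be read against the shares of all genes: in phagocytes 16, 12 and 7.36% of all genes rose at days 1, 3 and 7 and 23.9, 28.7 and 27.6% fell, and in endothelial cells at day 1 13.1% rose and 11.5% fell. Of 13 clock genes in phagocytes 2 rose and 9 fell at day 1 and likewise at day 3, and 1 rose and 7 fell of 14 at day 7. Of 18 immediate early and dissociation genes 1 rose and 8 fell at day 1, 1 rose and 11 fell at day 3, and 2 rose and 5 fell at day 7, the last close to the share of all genes that fell. In endothelial cells at day 1, 2 of 18 such genes rose and 10 fell, and 0 of 13 clock genes rose and 9 fell. Of 23 inflammatory genes known to be lowered by glucocorticoids 12 rose and 3 fell in phagocytes at day 1, of 22 at day 3 it was 7 and 8, and of 22 at day 7 it was 9 and 1, with median log2 ratios of 1.02, 0.08 and 0.62. Of the other induced genes 10 rose and 8 fell of 23 at day 1, 7 and 13 of 24 at day 3, and 5 and 7 of 22 at day 7. Of the metal response genes 4 rose and 2 fell of 8 in phagocytes at day 1, and 4 rose and 2 fell of 9 in endothelial cells. Mt2, named after its values were seen, rose from 92.1 to 401 CPM in phagocytes and from 599 to 1890.0 in endothelial cells.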

How the data were processed

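Gene by cell tables of UMI counts were deposited by the authors, 1 table per library, and hold raw counts that were not normalized. Cell Ranger 3.0.2 is named in the submitters' processing notes and 3.1.0 in the file headers of the injected tables, and the reference annotation is not given in the sources used here. Cells were kept from 200 genes and 500 UMIs upward, up to a mitochondrial share of 20%. A cell was gated to a class when its marker score was at least 0.15 and 1.2 times that of the next class, and phagocytes were split into microglia and macrophages or monocytes at 0.05 and 1.2 times. Counts were summed per class and library and divided by the class total to give CPM. Intervals are exact at 95%. No p-values were computed, since each group is 1 library. The intervals and the 2-fold rule, with its minimum of 20 UMIs, were run on simulated Poisson counts with planted 3-fold changes. The intervals held the true ratio for 95.95% of unchanged and 96.37% of changed genes. The simulation had no variation between cells, animals or libraries, so it cannot show how far the calls would hold between libraries. It also planted no ratios near 2-fold. Beside the 10 members, the text names from each other list the 2 genes highest and the 2 lowest by log2 ratio of CPM plus 10 among those called in MPSS against PBS phagocytes, genes called in at least 50% of the classes shown, and the 3 genes most correlated with Nr3c1, Tsc22d3 and Fkbp5, among genes with at least 200 UMIs over the points and at least 50 CPM in 1 of them. Exceptions are stated where they stand. The members, gene lists and markers were chosen with earlier results of these data known. No doublets were removed in the values given: the caller marked 4 PBS and 4 MPSS cells, too few to have worked, and cells with the highest doublet scores were left out as an alternative. Clusters came from scanpy 1.11.5 and leidenalg 0.10.2, and TMM factors from edgeR 4.0.16 in R 4.3.3. Python 3.11.15, numpy 2.4.6, scipy 1.17.1 and matplotlib 3.10.9 were also used.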

Additional observations from a re-analysis of the deposited data

Results flagged for a closer look

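The log2 ratio of Fkbp5 between MPSS and PBS differed by 3.40 between phagocytes gated neither way, where Fkbp5 had 7 PBS and 37 MPSS UMIs and a ratio of 4.72 (2.08-12.6), and T and NK cells, where it had 15 and 7 UMIs and a ratio of 0.447 (0.154-1.17). The ratios lay on opposite sides of 1, each from 1 library a group, and the difference was not tested.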

How the results depend on the processing

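No paired analysis was possible because each group is 1 library. In phagocytes, 0 members were called higher in MPSS than in PBS, but 1 was under TMM, median of ratios, thinning to 1000 UMIs, the stricter gate, totals that leave out mitochondrial and ribosomal protein genes and leaving out the highest cell, and 2 at 1.5-fold. In oligodendrocytes 2 were called higher at 1.5-fold and 1 after thinning, and 1 was called lower as a mean over cells and 1 with no minimum of UMIs, beside 0 each way. In fibroblasts 1 was called higher with no minimum. In day 7 phagocytes 2 were called higher at 1.5-fold, TMM and median of ratios and 1 without mitochondrial and ribosomal protein genes and without the highest cell, beside 0, and in day 3 phagocytes 2 under TMM and median of ratios, beside 1. Members called lower in phagocytes at day 1 went from 2 to 6 at 1.5-fold, 4 after thinning, 4 as a mean over cells, and 1 under TMM and median of ratios. At day 3 they went from 3 to 6 at 1.5-fold and 1 under TMM and median of ratios, and at day 7 from 2 to 5 at 1.5-fold and 0 under TMM and median of ratios. Fkbp5 in day 3 macrophages and monocytes, on 2 intact UMIs, turned to a log2 ratio of -0.15 after thinning. The causes were not tested. TMM adds 0.42 to 0.68 (log2) to every phagocyte ratio to intact, -0.26 and -0.01 to those of days 1 and 3 to day 7, and at most 0.08 to any of the injected set. The ratios within clusters and those with day 7 as reference were chosen after seeing the data. Depth limits Per1 in the injected cords, Hsd11b1 in the time course, and Fkbp5 in T and NK cells and in intact macrophages.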
